A study of Sebastes schlegelii with 6 samples.

Results

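Fatty acid desaturases and elongases of the Korean rockfish, the marine teleost Sebastes schlegelii, are described here from RNA sequencing of whole liver. The genes were taken by name, with earlier results of these data already known. The names were the symbols fads2, scd or elovl followed by a digit, or the product name acyl-CoA desaturase. The rule found 12 of the 19303 genes of the count table, namely 10 elongases, fads2 and 1 acyl-CoA desaturase that carries no symbol. No gene had a symbol starting with scd, so the acyl-CoA desaturase gene, annotated with stearoyl-CoA desaturase activity, stands for that enzyme here. The authors' deposited comparison table lists 2 further genes, an ELOVL6 and an ELOVL4, with no values, and they were not analysed here.

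The libraries fall into a fed group of 3 and a starved group of 3, each kept 72 days in its condition. No genotype, strain, sex or age is given in the labels, nor do they say that each library is a separate fish, so p-values measure the spread between libraries, which may be technical. Total counts ran from 11623356 to 14716282 per library. Fed replicate 1 stood apart: its log2 CPM values correlated across genes at r = 0.891 and 0.876 with the other fed libraries, against 0.951 between those, and 41.7% of its uniquely mapped reads were spliced, against 50.7% to 53.3% elsewhere. Transcripts of hepatocyte markers were abundant in every library, with a summed level of 149873 to 296679 CPM (counts scaled to library size) over 27 matched genes. Of these, apoa1 alone had 59683 to 156371 CPM.

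Desaturases place double bonds into the chain of a fatty acid joined to coenzyme A, and elongases lengthen that chain by catalysing the first and slowest step of a cycle in the endoplasmic reticulum. Stearoyl-CoA desaturase and ELOVL6 act on the products of fatty acid synthase and yield the monounsaturated and stearic acids that go into stored triglyceride. fads2 and ELOVL5 work on polyunsaturated acids on the way to long-chain polyunsaturated acids. ELOVL4 makes very long chains, and ELOVL1 and ELOVL7 lengthen saturated chains. All 12 genes carry the annotation terms endoplasmic reticulum and unsaturated fatty acid biosynthesis. 10 are assigned to the elongation pathway and 5 to the pathway of unsaturated fatty acid biosynthesis. Gene names differ in the files by letter case, and that case is kept here to tell copies apart.

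Starved against fed liver asked which transcripts change when food is withheld. The acyl-CoA desaturase, fads2 and ELOVL5 fell in starved liver, 5 other tested genes did not pass, and none rose. The desaturases lost nearly all of their transcripts: the acyl-CoA desaturase was 108-fold lower and fads2 had no count in any starved library. ELOVL5 was 11.7-fold lower. None of the other tested elongases passed, and the 2 genes named for ELOVL6 had log2 fold changes of opposite sign. In whole liver, fewer cells of a type and less RNA per cell cannot be told apart.

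Of the 12 genes, 8 passed the filter on low counts and were tested. fads2 entered the test through its fed libraries alone, and ELOVL5, with 10 counts in starved replicate 2, also needed fed libraries to pass. The 12 genes were also chosen with earlier results of these data known. The number that fell is therefore a description of these genes and supports nothing beyond them. Over all 13338 tested genes, edgeR called 5.16% in either direction, 2.98% lower and 2.18% higher in starved liver (quasi-likelihood F test with Benjamini-Hochberg adjustment, threshold 0.05), which is the background for the 3 falls and 0 rises. The DESeq2 Wald test called 4 of the 8 lower, against 7.16% of all genes it tested, and it called 5.27% of all genes higher. These shares, with those of edgeR, are the background for every count on all libraries by edgeR as above or the DESeq2 Wald test. At an unadjusted p under 0.05, edgeR had 12.3% of all tested genes lower and 9.6% higher, the background for every unadjusted count given here. Of the 8, 4 fell and still 0 rose at an unadjusted p under 0.05. There were also 0 rises with the DESeq2 Wald test, limma-voom and both fits on FPKM. Fed and starved values did not overlap for 4 of the 8, each of them lower in starved liver, and for 31.1% of all tested genes, 15.5% being lower. The median log2 fold change was -1.36 over the 8 and -0.03 over all tested genes.

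**Figure D1:**
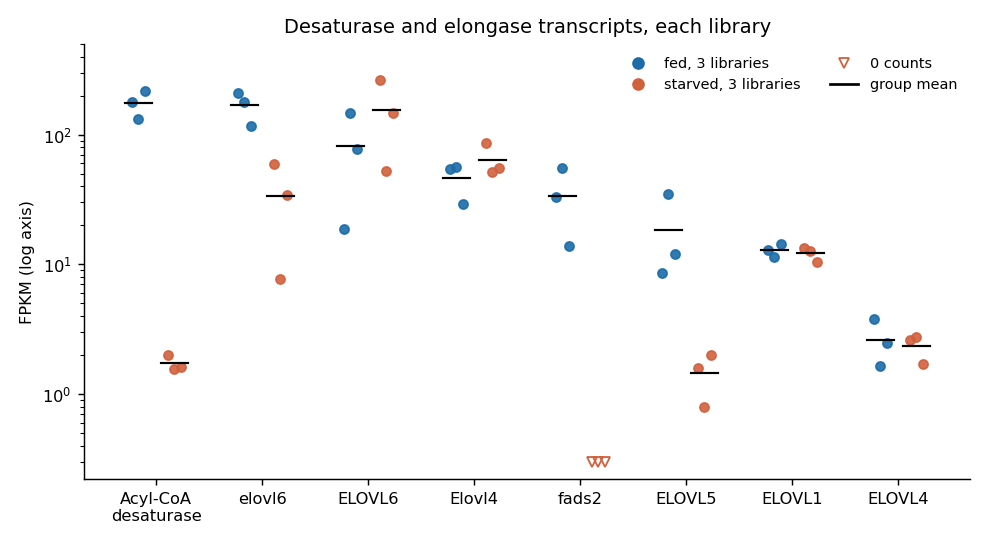
Level of the 8 tested desaturase and elongase genes in each library, in FPKM on a log axis, with fed libraries in blue, starved libraries in orange, a bar at each group mean and open triangles for 0 counts. The starved points of the acyl-CoA desaturase, ELOVL5 and elovl6, which was not called, lie wholly below the fed points. Those of fads2 are at 0. The points of ELOVL6, Elovl4, ELOVL1 and ELOVL4 overlap between the groups.

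The acyl-CoA desaturase (S.schlegelii_GLEAN_10015164, coding length 1083 bases) introduces the first double bond into saturated fatty acids. It had counts of 2256, 1855 and 2892 in fed replicates 1 to 3 and 29, 24 and 26 in starved replicates 1 to 3. On the FPKM scale, which is per coding length and per library size, these were 179, 131 and 217 in fed and 1.99, 1.57 and 1.63 in starved liver. Every fed library was far above every starved one, the lowest fed value being 66.1 times the highest starved value. The log2 fold change, starved minus fed, was -6.76 ± 0.44 (SE, n = 3 per group; edgeR adjusted p = 0.00119), with an approximate 95% interval from -7.77 to -5.75 that is not adjusted for the number of genes. Only 10 tested genes had a more negative log2 fold change. The call held in all 15 alternatives, with log2 fold changes from -7.02 to -5.99 and adjusted p up to 0.0228.

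fads2 (S.schlegelii_GLEAN_10019556, coding length 1299 bases) is the front-end desaturase of polyunsaturated fatty acids, and the count table held 0 genes with the symbol FADS1, its partner in mammals. Its counts were 497, 929 and 222 in the fed libraries and 0 in each starved library. The fed libraries differed among themselves by a factor of 3.95 in FPKM, with replicate 2 highest at 54.9 and replicate 3 lowest at 13.9 FPKM. In CPM replicates 1 and 2 were close, at 57.6 and 58.9, and replicate 3 had 17.1. The fed level of 44.5 ± 23.8 CPM (SD, n = 3) was at least 637-fold higher than a floor of 3 counts over the starved group, and that of the lowest fed library at least 244-fold higher; both bounds cover counting error only. The call (edgeR adjusted p = 0.00467) ended without fed replicate 1 (adjusted p = 0.0636).

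ELOVL5 (S.schlegelii_GLEAN_10023938, coding length 885 bases) elongates the polyunsaturated acids that fads2 makes. Its counts were 89, 401 and 131 in fed replicates 1 to 3 and 19, 10 and 26 in starved replicates 1 to 3. In FPKM the fed libraries had 8.65, 34.8 and 12.0 and the starved libraries 1.59, 0.802 and 2.0. The groups did not overlap, but the fed libraries spread over a factor of 4.02 in FPKM. Replicate 2 was above the other fed libraries in FPKM and in CPM. The log2 fold change was -3.55 ± 0.53 (SE, n = 3 per group; edgeR adjusted p = 0.0124). Without starved replicate 1 or starved replicate 2 the call ended (adjusted p = 0.0729 and 0.0577), with log2 fold changes of -3.57 and -3.22. Without fed replicate 2 it held, at a smaller log2 fold change of -2.96, or 7.77-fold (edgeR adjusted p = 0.0330).

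The authors' deposited table called the same 3 genes lower, with ratios of starved over fed of 0.00926 for the acyl-CoA desaturase (q = 6.02e-59), 0.000290 for fads2 and 0.0856 for ELOVL5. That table also called elovl6 lower, at a ratio of 0.188 (q = 0.00401). In all it called 808 of its 16166 genes with a q-value lower, or 5.0%. The ratio for fads2 rests on a group listed at 0 and is no measured fold.

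**Figure D2:**
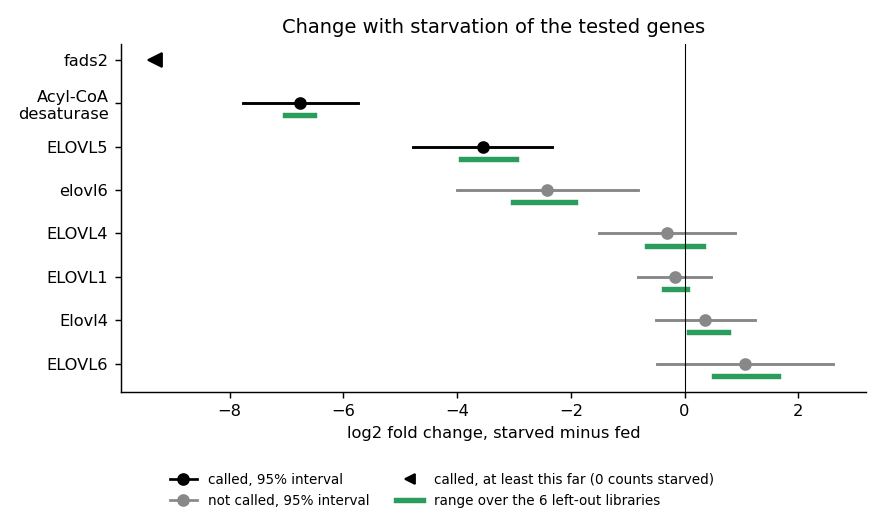
Log2 fold change, starved minus fed, of the 8 tested genes with an approximate 95% interval, in black where the gene was called and in grey where it was not; green bars give the range when each of the 6 libraries is left out. The triangle for fads2 is a bound of 9.32 log2 units below 0, from 0 counts in starved liver; the ranges of ELOVL1 and ELOVL4 span 0.

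ELOVL6, which turns palmitate into stearate, was represented by 2 genes of the same coding length, 810 bases. elovl6 (S.schlegelii_GLEAN_10018749) had 209, 180 and 117 FPKM in fed replicates 1 to 3 and 59.7, 7.71 and 34.5 FPKM in starved replicates 1 to 3. The fed values were all above the starved ones, by a factor of 1.95 between the closest libraries. Its log2 fold change was -2.42 ± 0.70 (SE, n = 3 per group) and did not pass (edgeR adjusted p = 0.0886; from 0.00356 with the DESeq2 Wald test, where it was called, to 0.248 over the alternatives).

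ELOVL6 (S.schlegelii_GLEAN_10006724) had 18.6, 148 and 76.9 FPKM in fed replicates 1 to 3 and 263, 52.8 and 148 FPKM in starved replicates 1 to 3. The groups overlapped, and fed replicate 1 was below every other library. The log2 fold change was 1.06 ± 0.67 (SE, n = 3 per group; edgeR adjusted p = 0.397), with an approximate 95% interval from -0.48 to 2.60, and 0.51 to 1.65 when a library was left out.

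The balance of the 2 genes within a library did not overlap between the groups. The ratio of elovl6 to ELOVL6 was 11.3, 1.21 and 1.51 in fed replicates 1 to 3, and 0.227, 0.146 and 0.233 in starved replicates 1 to 3. elovl6 was therefore the more abundant transcript in every fed library and ELOVL6 in every starved library. The mean log2 ratio was 1.46 ± 1.77 in fed and -2.34 ± 0.38 in starved liver (SD, n = 3 per group), a difference of -3.80, and -2.78 without fed replicate 1. A two-sided exact permutation test gave p = 0.1, the smallest p that 3 against 3 libraries allow, so this comparison could not reach 0.05, and the pair was singled out after its values were seen. Summed over both genes the level was 228, 328 and 193 FPKM in fed and 323, 60.5 and 182 FPKM in starved liver. The summed values overlapped (two-sided exact permutation p = 0.4, n = 3 per group). Reads that fit both copies may have been left out or counted whole, since the labels do not tell how shared reads were counted. Multiply mapped reads were 9.15% to 12.6% of all reads in a library.

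**Figure D3:**
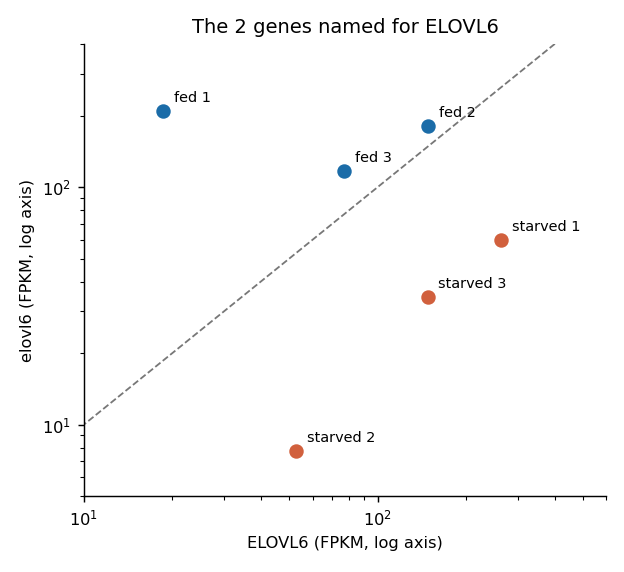
Level of elovl6 against level of ELOVL6 in each of the 6 libraries, in FPKM on log axes, with fed libraries in blue, starved in orange and a dashed line where both are equal. All 3 fed libraries lie above the line and all 3 starved libraries below it.

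The other elongases had smaller differences. Elovl4 (S.schlegelii_GLEAN_10016867), named for the elongase of very long chains, had 54.1, 56.4 and 29.3 FPKM in fed replicates 1 to 3 and 85.8, 51.4 and 55.4 FPKM in starved replicates 1 to 3. Fed replicate 3 was lowest and starved replicate 1 highest, and the rest overlapped. Its log2 fold change was 0.37, with an approximate 95% interval from -0.51 to 1.24 (edgeR adjusted p = 0.614). A second gene of that name, ELOVL4 (S.schlegelii_GLEAN_10016868), was far lower, at 1.64 to 3.79 FPKM in fed and 1.71 to 2.77 FPKM in starved liver, and did not pass (log2 fold change -0.31, edgeR adjusted p = 0.767).

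ELOVL1 (S.schlegelii_GLEAN_10016883), an elongase of saturated very long chains, varied least of the 8 tested genes in fed FPKM values, by a factor of 1.26. Among starved libraries its factor was 1.28, slightly above that of the acyl-CoA desaturase. ELOVL1 had 12.9, 11.4 and 14.4 FPKM in fed replicates 1 to 3 and 13.4, 12.6 and 10.4 FPKM in starved replicates 1 to 3. In CPM its fed replicates 1 to 3 had 16.8, 9.13 and 13.2, a wider spread. The groups overlapped, and the log2 fold change of -0.17 had an approximate 95% interval from -0.81 to 0.47 (edgeR adjusted p = 0.761). The directions of ELOVL1 and ELOVL4 turned without fed replicate 1, to 0.052 and 0.33. The 4 untested genes, another ELOVL1, another ELOVL4 and both ELOVL7 genes, had at most 26 counts in any library, too few to show a difference at this depth.

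In fed liver the acyl-CoA desaturase and elovl6 had the highest levels, at 176 ± 43.0 and 169 ± 47.4 FPKM (SD, n = 3). ELOVL6 followed at 81.2 ± 64.9 FPKM, Elovl4 at 46.6 ± 15.0, fads2 at 33.9 ± 20.5, ELOVL5 at 18.5 ± 14.2 and ELOVL1 at 12.9 ± 1.48 FPKM. Each neighbour in that order overlapped the next, and ELOVL4 at 2.63 ± 1.08 FPKM was clear of ELOVL1. In starved liver the order was led by ELOVL6 at 155 ± 105 FPKM, Elovl4 at 64.2 ± 18.8, elovl6 at 34.0 ± 26.0 and ELOVL1 at 12.2 ± 1.53 FPKM. The acyl-CoA desaturase stood sixth there, at 1.73 ± 0.224 FPKM, after ELOVL4 at 2.36 ± 0.572 FPKM, whose range it overlapped, and ELOVL5 at 1.46 ± 0.607 FPKM came next.

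As a share of the summed FPKM of all 12 genes, the acyl-CoA desaturase made up 34.4%, 21.2% and 44.9% in fed replicates 1 to 3 and 0.461%, 1.2% and 0.641% in starved replicates 1 to 3. ELOVL6 made up 3.57%, 23.9% and 15.9% in fed and 61.1%, 40.3% and 58.1% in starved liver. Neither gene's shares overlapped between the groups. A share also depends on the level of the other genes. In FPKM, ELOVL6 itself did overlap, with 148 in fed replicate 2 and 52.8 in starved replicate 2, and it did not pass. The summed level of the 12 genes was 520, 619 and 484 FPKM in fed and 431, 131 and 255 FPKM in starved liver. The elongases alone overlapped, with 252 to 433 FPKM in fed and 129 to 429 FPKM in starved liver.

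**Figure D4:**
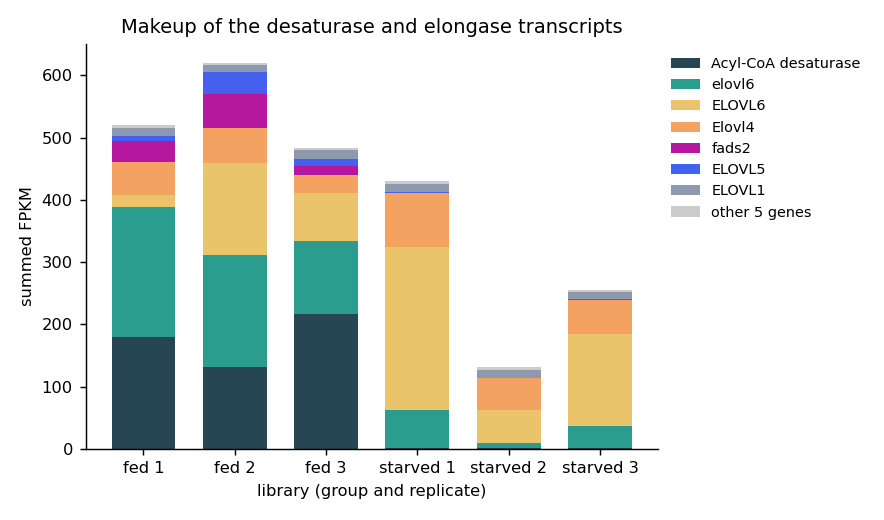
Summed FPKM of the 12 desaturase and elongase genes in each library, stacked by gene, with bars starting at 0. The acyl-CoA desaturase, fads2 and ELOVL5 segments are seen only in the fed bars at this scale, and ELOVL6 makes up 40.3% or more of each starved bar.

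The genes most like each fallen gene across the 6 libraries were named by Pearson's r of log2 CPM among 6875 genes of sufficient level; these libraries share the 2 groups, so r mostly follows the group difference. For the acyl-CoA desaturase they were acsf2, a mitochondrial acyl-CoA synthetase, with r = 0.998, RABGEF1 with r = 0.994 and COLEC12, a scavenger receptor, with r = 0.993. For fads2 they were Gramd2a, zfyve28 and Aoc1, with r from 0.994 to 0.999. For ELOVL5 they were TSTA3, TRIB2 and PKP1, with r from 0.991 to 0.994.

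An elongase needs 3 further enzymes to complete its cycle: a ketoacyl-CoA reductase (hsd17b12), a dehydratase (hacd) and an enoyl-CoA reductase (tecr). Of 9 such genes 6 were tested, 1 fell and 0 rose (edgeR; 0 rose and 1 fell also at an unadjusted p under 0.05 and with the DESeq2 Wald test, and 0 did either with limma-voom). Over all genes edgeR called 2.98% lower and 2.18% higher, and the DESeq2 Wald test 7.16% and 5.27%. The elongation-cycle gene that fell was 1 of 2 tested hacd3 copies. It went from 17.6, 9.57 and 11.6 CPM in fed to 4.18, 5.47 and 5.07 CPM in starved replicates 1 to 3. Its groups did not overlap, and its log2 fold change was -1.39 ± 0.31 (SE, n = 3 per group; edgeR adjusted p = 0.041). It no longer passed with limma-voom, nor when any library except fed replicate 1 was left out (adjusted p up to 0.172). hsd17b12b, the reductase, had 67.9 ± 14.0 CPM in the fed group against 69.1 ± 10.8 CPM in the starved group (SD, n = 3 per group; edgeR adjusted p = 0.966). Neither HACD2, at a log2 fold change of 0.091, nor TECR, at 0.14, passed (edgeR adjusted p = 0.901 and 0.863). Genes of the elongation, electron and desaturase lists other than the called one or the one with the smallest p were picked for mention after their values were seen.

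Desaturases take electrons from cytochrome b5, which its reductases recharge. Of 5 tested genes of this chain, 0 fell and 0 rose with edgeR, limma-voom and both fits on FPKM, while 2 fell at an unadjusted p under 0.05 and with the DESeq2 Wald test, and 1 fell with edgeR when fed replicate 1 was left out. The 2 were 1 of the 2 CYB5A genes, with a log2 fold change of -0.89, and cyb5r2 with -1.37 (edgeR adjusted p = 0.0898 and 0.127). Over all genes edgeR called 2.98% lower and 2.18% higher, and the DESeq2 Wald test 7.16% and 5.27%. Neither that CYB5A gene nor cyb5r2 overlapped between the groups. cyb5r2 had 250, 94.0 and 110 CPM in fed and 81.8, 36.8 and 56.3 CPM in starved replicates 1 to 3. The more abundant CYB5A gene had 156 ± 36.5 CPM in the fed group against 129 ± 11.0 CPM in the starved group (SD, n = 3 per group). Its groups overlapped (edgeR adjusted p = 0.604). Log2 fold changes of the 5 genes ran from -1.37 to -0.05. Their summed level was 296 to 498 CPM in fed and 203 to 273 CPM in starved liver, without overlap.

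Among other desaturases, related hydroxylases and cyb5d2, 6 of 12 genes were tested and 0 passed with edgeR in either direction. Of the 6, 2 rose at an unadjusted p under 0.05, each a gene of the hydroxylase FA2H, and 1 rose with the DESeq2 Wald test. That test called 5.27% of all genes higher. Another tested FA2H gene went the other way, with a log2 fold change of -1.25 and overlapping groups (edgeR adjusted p = 0.301). DEGS1, the desaturase of sphingolipids, had 33.7 ± 3.80 CPM in the fed group against 24.7 ± 1.70 CPM in the starved group, groups that did not overlap (SD, n = 3 per group; edgeR adjusted p = 0.275). FADS6 ranged from 2.92 to 19.4 CPM among fed and from 7.64 to 55.2 CPM among starved libraries, and the groups overlapped (edgeR adjusted p = 0.432). The smallest p of the list was that of an FA2H gene, a fatty acid hydroxylase, with a log2 fold change of 1.81 (edgeR adjusted p = 0.0869).

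A list of fatty acid supply, mainly the path to palmitate, the substrate of ELOVL6 and the acyl-CoA desaturase, included 7 genes that fell of 15 tested. It had 0 that rose at any of the tests named above, and a median log2 fold change of -1.90. Over all tested genes edgeR called 2.98% lower. FASN, the fatty acid synthase, was lower in every starved library but did not pass (log2 fold change -1.90, edgeR adjusted p = 0.075). The list was chosen with earlier results of these data known. The 3 with the smallest p were mid1ip1b, a regulator of acetyl-CoA carboxylase, Acaca, that carboxylase, and mid1ip1l, a relative of the former, which had differences of -8.50, -3.82 and -3.82 on the log2 scale (edgeR adjusted p = 0.00339, 0.00467 and 0.0131). Dropping any starved library ended the mid1ip1l call (adjusted p up to 0.0796), and without fed replicate 1 its value was -3.21. The count was 4 without fed replicate 3 and 2, 2 and 3 without starved replicates 1, 2 and 3. Of the 7, mid1ip1a had 0.567, 0.857 and 0.734 CPM in starved replicates 1 to 3. It needed fed libraries to pass the filter on low counts.

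Of 27 tested genes of acyl-chain activation and lipid assembly, 4 fell and 1 rose with edgeR, against 2.98% and 2.18% of all tested genes. Their median log2 fold change was -0.094, and the list included lipin (LPIN) and ceramide synthase (CERS) genes. At an unadjusted p under 0.05, and likewise with the DESeq2 Wald test, 6 fell and 3 rose. Those with the smallest p were Acsl4, an acyl-CoA synthetase that prefers polyunsaturated acids, at -4.17, ACSL3 at -2.33 and 1 of 2 tested DGAT1 genes, for an enzyme of triglyceride assembly, at -2.16 (edgeR adjusted p = 0.00467, 0.0118 and 0.0192). The calls of ACSL3 and DGAT1 ended without starved replicate 1 or 3, and that of DGAT1 also without starved replicate 2 and in both fits on FPKM (adjusted p up to 0.0692 and 0.103). The number that fell was 1, 2 and 1 without starved replicates 1, 2 and 3. Of the 4, ACSL6 had 1.13, 0.198 and 0.587 CPM in starved replicates 1 to 3. It needed fed libraries to pass the filter on low counts. SOAT1, a cholesterol acyltransferase, was the gene that rose (log2 fold change 1.44, edgeR adjusted p = 0.0416). It kept its call without fed replicate 1 but in no other set of 5 libraries, and lost it with no filter on low counts and in both fits on FPKM (adjusted p up to 0.17). Of 14 genes of peroxisomal chain shortening, the last step of docosahexaenoic acid synthesis by the longer route in mammals, 0 passed with edgeR, the DESeq2 Wald test or limma-voom, and 1 rose and 2 fell at an unadjusted p under 0.05 (median log2 fold change 0.15).

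Among 16 genes that regulate desaturase and elongase transcription in mammals, 2 fell and 0 rose with edgeR, with a median log2 fold change of -0.05. At an unadjusted p under 0.05, and likewise with the DESeq2 Wald test, 1 rose and 4 fell. Over all genes edgeR called 2.98% lower and 2.18% higher, and the DESeq2 Wald test 7.16% and 5.27%. A gene of this list also rose with no filter on low counts, in both fits on FPKM and with edgeR without fed replicate 1. SREBF1, a transcription factor that drives such genes, had 141, 99 and 117 CPM in fed replicates 1 to 3 and 44.8, 45.8 and 39.7 CPM in starved replicates 1 to 3. The groups did not overlap, and the log2 fold change was -1.45 ± 0.26 (SE, n = 3 per group; edgeR adjusted p = 0.0206). Dropping any starved library ended that call (adjusted p up to 0.133). 1 of the 2 genes named for PPARA, a fatty acid receptor, fell, with a log2 fold change of -5.40 (edgeR adjusted p = 0.00339). That gene had 0.992, 0.659 and 1.17 CPM in starved replicates 1 to 3 and needed fed libraries to pass the filter on low counts. The other, at 1.62, missed the threshold (edgeR adjusted p = 0.0656). Of the 16, 4 fell when fed replicate 1 was left out and 1 when any starved library was.

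**Figure D5:**
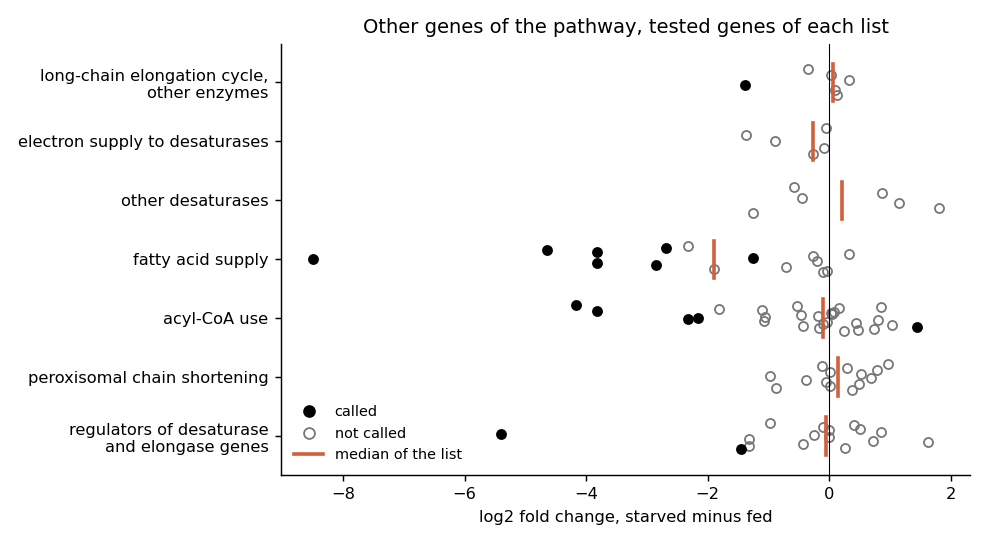
Log2 fold change, starved minus fed, of every tested gene in 7 lists of related genes, with called genes in black, others open and the median of each list as an orange bar. Called genes are most frequent in the fatty acid supply list (7 of 15) and absent from the electron supply, other desaturase and peroxisomal lists.

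Of 26 tested hepatocyte genes, 1 fell, AHSG, and 0 rose with edgeR, against 2.98% lower and 2.18% higher over all tested genes. At an unadjusted p under 0.05, and likewise with the DESeq2 Wald test, 4 fell and 0 rose. Markers of other cells were read beside these values. Of the adipocyte list 4 genes were in the count table, with FABP4 at 1 count or less in every library; their summed level was 260 to 725 CPM in fed and 277 to 376 CPM in starved liver, nearly all of it CFD, and 0 of 3 tested genes passed with edgeR, at an unadjusted p under 0.05 or with the other tools. The summed level of 12 endothelial and stellate genes was 346 to 473 CPM in fed and 185 to 232 CPM in starved liver, groups that did not overlap. Its 3 collagen genes, which fell, carried that difference, with 245 to 391 CPM in fed and 50.5 to 71.2 CPM in starved liver. The 9 other genes of the list summed to 81.5 to 128 CPM in fed and 135 to 161 CPM in starved liver, higher in every starved library, and 6 of 7 tested had a log2 fold change above 0; 0 rose with edgeR, limma-voom or the DESeq2 Wald test, and 1 at an unadjusted p under 0.05. The summed level of 13 bile duct genes was 883 to 1527 CPM in the fed and 592 to 854 CPM in the starved libraries, again without overlap. A single krt18 gene made up most of it, at 778 to 1331 CPM in fed and 424 to 682 CPM in starved liver, while the 12 others overlapped, at 105 to 196 and 168 to 175 CPM. None of the 5 tested bile duct genes passed with edgeR (2 fell at an unadjusted p under 0.05 and 1 with the DESeq2 Wald test). The red blood cell list summed to 469 to 1333 CPM in fed and 185 to 983 CPM in starved liver. Log2 fold changes of its 4 tested genes ran from -2.19 to -0.62, and 0 passed with edgeR. Of the 4, 1 fell at an unadjusted p under 0.05, with the DESeq2 Wald test and on log2(FPKM + 1). The 12 immune genes summed to 144 to 218 CPM in fed and 166 to 343 CPM in starved liver, and 0 of 6 tested passed by any of these tests. The part of these cells in the desaturase and elongase values was not tested. The exocrine pancreas list reached 338 CPM in starved replicate 3, against 8.12 to 67.6 CPM in the other libraries. Its 7 tested genes had log2 fold changes from 0.89 to 3.18, and 0 passed with edgeR. Without starved replicate 3 the acyl-CoA desaturase, fads2 and ELOVL5 had edgeR adjusted p of 0.0138, 0.0256 and 0.0455. The part of pancreatic cells in the desaturase and elongase values was not tested.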

How the data were processed

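Raw counts, whole and unscaled, and FPKM values were deposited by the authors for each gene and library; FPKM is corrected for coding length and total count only. Their deposited comparison lists a fold, as a ratio with fed liver below the line, and a q-value, from a test that is not stated. Read totals are a count by mapping class, per the file headers. The submitters' processing notes name HISAT2, HTSeq, Cufflinks and Trimmomatic; versions and genome build are not given in the sources used here. The kit selects mRNA and marks strand, per the labels' protocols, but whether counting used strand is not given, so overlapping genes may share reads.

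All 13338 genes passing filterByExpr were fitted together with edgeR 4.0.16 in R 4.3.3 (TMM, robust quasi-likelihood F test, Benjamini-Hochberg over all of them, calls at 0.05). CPM uses the TMM factors. SEs and 95% intervals derive from the F statistic. A floor of 3 counts over the group bounds folds against 0 counts. Tests were first tried on simulated counts. Replicates differed by a chi-square of 33.6 or more per degree of freedom, so none was counted as a repeat. Alternatives used DESeq2 1.42.0, limma 3.58.1 (voom, and FPKM with a pseudocount of 1 or 0.1), other scalings, filters and left-out libraries. Tested members and called or leading list genes are named; a mean of 1 CPM in a group admits members. Genes like a member were sought above 3 log2 CPM. Lists were matched by symbol, with paralog endings. The members and lists were chosen with earlier results of these data known.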

Additional observations from a re-analysis of the deposited data

How the results depend on the processing

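Of the 15 alternatives, none changed the number of desaturase and elongase genes that rose, 0, and the number that fell stayed at 2 to 4, the 4 being with the DESeq2 Wald test, which added elovl6. Leaving out each library gave 2 to 3 falls and 0 to 0 rises; fads2 was lost without fed replicate 1 and ELOVL5 without starved replicate 1 or 2. Among all tested genes, 688 were called, 1655 with the DESeq2 Wald test, 445 on log2(FPKM + 0.1), and 102 to 1704 when a library was left out, the extremes being without starved replicate 1 and without fed replicate 1. The directions of ELOVL1 and ELOVL4 turned without fed replicate 1 (0.052 and 0.33); over the left-out libraries they ran from -0.37 to 0.052 and from -0.66 to 0.33, and the cause was not tested. No other tested desaturase or elongase changed direction in any alternative. The median of all genes moved by at most 0.088 on the log2 scale in any alternative. The balance of elovl6 and ELOVL6, an alternative added after seeing the data, ran from -4.38 to -2.78 over the left-out libraries. No paired analysis was possible because the title codes share a letter between the groups for only 1 pair of libraries, and a block needs at least 2. Genes with few counts, such as both ELOVL7 genes, are limited by depth.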
